A study of Mus musculus with 6 samples.

Results

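The proteasome subunit and assembly genes of the mouse were followed in newly made and stored RNA of early embryos. They were chosen by name alone, as the rows of the deposited table whose gene name starts with Psma, Psmb, Psmc, Psmd, Psme, Psmf or Psmg followed by a digit. This gave 49 genes of 23259 gene names. 1 of them, Psmc3ip, shares only the name: it encodes a partner of a proteasome ATPase that acts in meiotic recombination. Since the name rule takes it in, it is counted in every total over the 49 genes below, and in no role. The other 48 encode the alpha and beta rings of the 20S core, the ATPases and non-ATPase subunits of the 19S cap, the chaperones that assemble both, and the activators and the inhibitor that bind the core.

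The proteasome is the protease that destroys proteins tagged with ubiquitin. The core holds the cutting sites inside a stack of alpha and beta rings, and the 19S cap binds ubiquitin, removes it and unfolds the protein with its ring of ATPases. PSME activators replace the cap on the core and open it without ubiquitin. At the passage from egg to embryo, stored maternal proteins are destroyed by the proteasome while maternal mRNA decays and the embryo's own genome is switched on.

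The series measured RNA by labelling with 4-thiouridine, a uridine analogue that is built into RNA during transcription. Once alkylated with iodoacetamide it is read as C in place of T, and a read that holds this mismatch is termed a T-to-C read. Part of these reads come from RNA transcribed while the label was present. Per the labels, 3 groups of 2 samples were collected: zygotes of the genotype Pabpn1l-null, WT 2-cell embryos and WT zygotes, each sample of 50 embryos kept for 2 h with the label at 200 μM, starting 26 h after hCG, the hormone given to trigger ovulation. PABPN1L binds poly(A) tails in the oocyte and takes part in the decay of maternal mRNA. Strain, the deleted part of Pabpn1l and when 2-cell embryos were taken remain not given in the sources used here. Zygotes alone are mentioned in the protocol of all 6 samples, so whether the 26 h holds for 2-cell embryos is not known.

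The table holds a single pair of count columns for each group (all reads, and T-to-C reads), so no difference has a replicate check and every test compares 3 sets of libraries, not 3 conditions. The columns held 1270381 reads in null zygotes, 4020404 in 2-cell embryos and 3001478 in WT zygotes, of which 3.86%, 4.54% and 3.03% were T-to-C reads. Pabpn1l itself had 4 reads in null zygotes, 14 in 2-cell embryos and 47 in WT zygotes, none of them T-to-C. The 8 oocyte and zygote markers summed to 15830 scaled RPM in null zygotes, 3477 in 2-cell embryos and 13157 in WT zygotes. Bmp15 and Gdf9 held most reads of this sum in each column, and single markers went both ways. Zp1 and Zp3 had more reads in 2-cell embryos than in WT zygotes, and the other markers had fewer. Gdf9, Zar1, Zp1, Zp2 and Zp3 had more reads in null than in WT zygotes, while Bmp15, Nlrp5 and Oog1 had fewer. Scaled RPM are reads relative to the column total times its TMM factor. The 4 markers of the 2-cell stage in the table summed to 15.9, 1819 and 65.2 in these groups. Tdpoz4, Zfp352 and Zscan4d were higher in 2-cell embryos than in WT zygotes. Dux went the other way, with fewer reads in 2-cell embryos, and held most of the WT zygote sum. Markers of cumulus and granulosa cells (10 genes, 4 at 0 in all columns) summed to 51.4, 77.2 and 80.6, with Amh, Inhba, Ptx3 and Tnfaip6 at 0. In the same order of groups, Cyp19a1 had 23, 0 and 80 reads, Nr5a2 41, 241 and 134, and Ptgs2 0, 37 and 0. Foxl2 had 0, 13 and 6 reads, Fshr 4, 4 and 10, and Has2 0, 4 and 11. The 5 leukocyte markers summed to 0.755, 11.1 and 14.0, with Ptprc at 0, and their part in the results below was not tested. Laptm5 had 1, 23 and 42 reads, Cd74 0, 11 and 0, H2-Aa 0, 7 and 0, and Lyz2 0, 2 and 0. The 6 sperm markers, nearly all from Odf2, summed to 207, 452 and 147, with Prm1 and Tnp2 at 0. Earlier work on the table found low counts of the null column in clumps of about 7 and no such clumps in the WT columns. Tests and intervals took 7 reads as 1 molecule throughout, which also widens the intervals between WT columns.

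Most proteasome genes had few reads. Of the 49 genes, 44 had at least 1 read in some column and 39 reached the 20 reads over the 3 columns that a test required. Psma8, Psmb3, Psme1, Psme2 and Psmg4 were listed at 0 in all 3 columns, where a count of 0 allows up to 3 molecules, or 21 reads. Psmb3 encodes a subunit of every 20S core, and why it was listed at 0 was not tested. Psmb8, Psmb9, Psmb10, Psmd13 and Psmg2 had between 1 and 19 reads over the 3 columns and were not tested. Reads per gene depend on transcript length, which was not used here, so levels were compared between groups and not between genes. All levels below are in scaled RPM. In bulk embryos, fewer cells with a transcript and less of it per cell cannot be told apart.

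**Figure D1:**
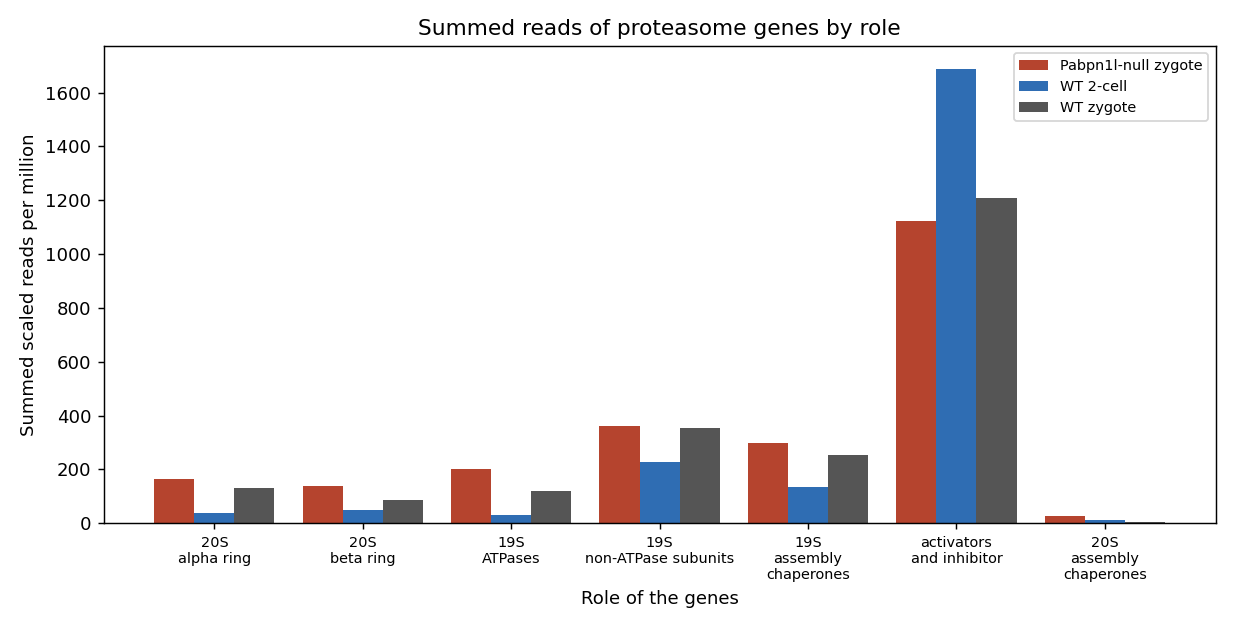
Summed scaled RPM (vertical axis, from 0) of the tested and untested proteasome genes of each role, in Pabpn1l-null zygotes, WT 2-cell embryos and WT zygotes, 1 column of counts per group and no error bars. The 20S rings and the 19S ATPases were lowest in 2-cell embryos, while the activators and inhibitor reached 1689 there, against 1206 in WT zygotes.

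In 2-cell embryos against WT zygotes, the core and cap genes were mostly lower and one alternative activator was much higher. The 32 subunit genes of the 20S core and 19S cap summed to 348 scaled RPM in 2-cell embryos and 691 in WT zygotes, a ratio of 0.503. The ratio was 0.577 without Psmd12 and 0.409 without Psmd3, the genes that moved the sum most in either direction. All 49 genes together summed to 2190 in 2-cell embryos and 2164 in WT zygotes. Without Psme3 and Psme4 the sums were 581 and 1175, a ratio of 0.494. Of 39 genes tested, 3 were higher and 9 lower in total reads by the exact conditional binomial test with a p, adjusted by Benjamini-Hochberg, under 0.05 and a difference of 2-fold or more. Among all 11262 genes tested, 16.4% were higher and 15.9% lower by this rule, and the 9 lower genes were 23.1% of the 39. With every read counted as 1 molecule, 5 were higher and 20 lower, against 30.7% and 28.4% of all genes. By the 2-fold difference alone, with no test, 5 were higher and 20 lower (12.8% and 51.3% of the 39), against 31.7% and 29.4% of all genes. The median log2 ratio was -1.12 over the 39 and 0.04 over all genes. Among the 22 proteasome genes with at least 100 reads over the 3 columns, 3 were higher and 14 lower by 2-fold. The share over all genes with at least 100 reads was not computed, so these 2 counts have no matching background. With RLE factors the median of all genes moved to 0.28 and that of the proteasome genes to -0.88, a distance of -1.16 in both scalings.

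Genes of the alpha ring, which gates the core, had lower values in 2-cell embryos for each of the 7 members with reads. Psma6 had 41 reads in 2-cell embryos and 152 in WT zygotes, or 10.6 and 50.8 scaled RPM, a ratio of 0.208 (95% interval 0.0680 to 0.535, exact test, adjusted p = 0.00149). Psma2 had 25 and 95 reads, a ratio of 0.203 (0.0441 to 0.681, exact test, adjusted p = 0.0184). These were the members of this ring that passed the test, and 5 of 7 were past 2-fold. Psma1 had 31 and 60 reads, a ratio of 0.399 with an interval of 0.0960 to 1.40 that includes 1. Psma4 had 15 and 32 reads, Psma5 had 11 and 30, Psma3 had 11 and 12, and Psma7 had 9 and 9. The summed ratio of the ring was 0.283.

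No gene of the beta ring, which carries the cutting sites, passed the test with 7 reads as 1 molecule. With every read counted as 1 molecule, Psmb5 was called higher and Psmb2, Psmb4 and Psmb7 lower. Psmb7, the trypsin-like subunit, had 70 reads in 2-cell embryos and 128 in WT zygotes, a ratio of 0.422 (0.174 to 0.962) that missed the adjusted threshold. Psmb2 had 5 and 39 reads and Psmb4 11 and 26. The other cutting subunits gave ratios on either side of 1: Psmb5, the chymotrypsin-like one, had 66 and 8 reads, a ratio of 6.37 (0.973 to 189), and Psmb6, the caspase-like one, had 26 and 39. Psmb1 had 20 and 21 reads. The subunits that replace the cutting ones in immune cells and the thymus had few reads. Psmb8 had 0 reads in 2-cell embryos and 1 in WT zygotes, Psmb9 had 9 and 0, and Psmb10 had 4 and 0. Psmb11 had 10 and 12.

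The ATPases of the cap, which unfold the protein and thread it into the core, had the lowest summed ratio of any role, 0.261, with 31.5 scaled RPM in 2-cell embryos and 121 in WT zygotes. Psmc1 had 48 and 162 reads, a ratio of 0.229 (0.0821 to 0.554, exact test, adjusted p = 0.00158), and alone among the 6 passed the test. Psmc2 had 39 and 93 reads, Psmc6 30 and 54, Psmc4 0 and 21, and Psmc5 2 and 29. These 4 and Psmc1 were past 2-fold. Psmc3 had 3 and 2 reads.

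The non-ATPase subunits of the cap differed in both directions. Psmd12, a scaffold subunit of the lid, had 29 reads in 2-cell embryos and 306 in WT zygotes, or 7.49 and 102 scaled RPM, a ratio of 0.0732 (0.0197 to 0.198, exact test, adjusted p = 1.0e-10). Its gene lies on chromosome 11 at 107479528 to 107498036 of GRCm38. Psmd4, a ubiquitin receptor, had 17 and 85 reads, a ratio of 0.154 (0.0220 to 0.628, exact test, adjusted p = 0.0146), and the lid subunit gene Psmd8 had 85 and 213, a ratio of 0.308 (0.144 to 0.617, exact test, adjusted p = 0.00174). Higher were 2 other lid subunit genes. Psmd3 had 290 reads in 2-cell embryos and 73 in WT zygotes, a ratio of 3.07 (1.53 to 6.75, exact test, adjusted p = 0.00268). Psmd7, which pairs with the deubiquitinase of the lid, had 147 and 34, a ratio of 3.34 (1.21 to 11.6, exact test, adjusted p = 0.0417), and lost the call with column totals or with no filter on low counts. Psmd14, that deubiquitinase, had 17 and 23 reads. Psmd11 had 169 and 142, a ratio of 0.919 (0.488 to 1.75), Psmd1 44 and 65, Psmd6 53 and 50, Psmd2 26 and 64, and Psmd13 6 and 0.

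Chaperones that assemble the cap were lower for 2 of 3 members. Psmd10, also known as gankyrin, had 19 reads in 2-cell embryos and 181 in WT zygotes, or 4.91 and 60.5 scaled RPM, a ratio of 0.0811 (0.0140 to 0.277, exact test, adjusted p = 2.8e-06). It lies on chromosome X at 140948425 to 140956711. Psmd9 had 169 and 292 reads, a ratio of 0.447 (0.259 to 0.755, exact test, adjusted p = 0.00676), and lay at 0.536 with RLE factors, past no 2-fold. Psmd5 had 331 and 289 reads, a ratio of 0.884 (0.570 to 1.38). Of the chaperones that assemble the core, Psmg1 had 20 and 12 reads, Psmg3 had 25 and 7, and Psmg2 had 5 and 0.

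The activators and the inhibitor held most reads of the family. Psme4, which encodes the activator PA200, had 2697 reads in 2-cell embryos and 419 in WT zygotes, or 697 and 140 scaled RPM. The ratio of 4.97 (3.78 to 6.64, exact test, adjusted p = 7.8e-41) was called under each scaling and filter tried. PA200 caps the core in the nucleus and is known in the mouse for the breakdown of acetylated core histones in male germ cells. Its gene spans chromosome 11 at 30771775 to 30881150. Psme3, which encodes the nuclear activator PA28-gamma, had 3535 reads in 2-cell embryos and 2538 in WT zygotes, or 913 and 849 scaled RPM, a ratio of 1.08 (0.938 to 1.23). With the most reads of the family, it gave the narrowest interval, which includes 1 with 7 reads as 1 molecule. With every read counted as 1 molecule the interval was 1.02 to 1.13, so whether the difference passes counting error depends on this setting. Psmf1, which encodes the inhibitor PI31, had 306 and 650 reads, or 79.0 and 217 scaled RPM, a ratio of 0.364 (0.248 to 0.526, exact test, adjusted p = 1.2e-07). Psme4 took 31.8% of the family's reads in 2-cell embryos and 6.48% in WT zygotes.

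**Figure D2:**
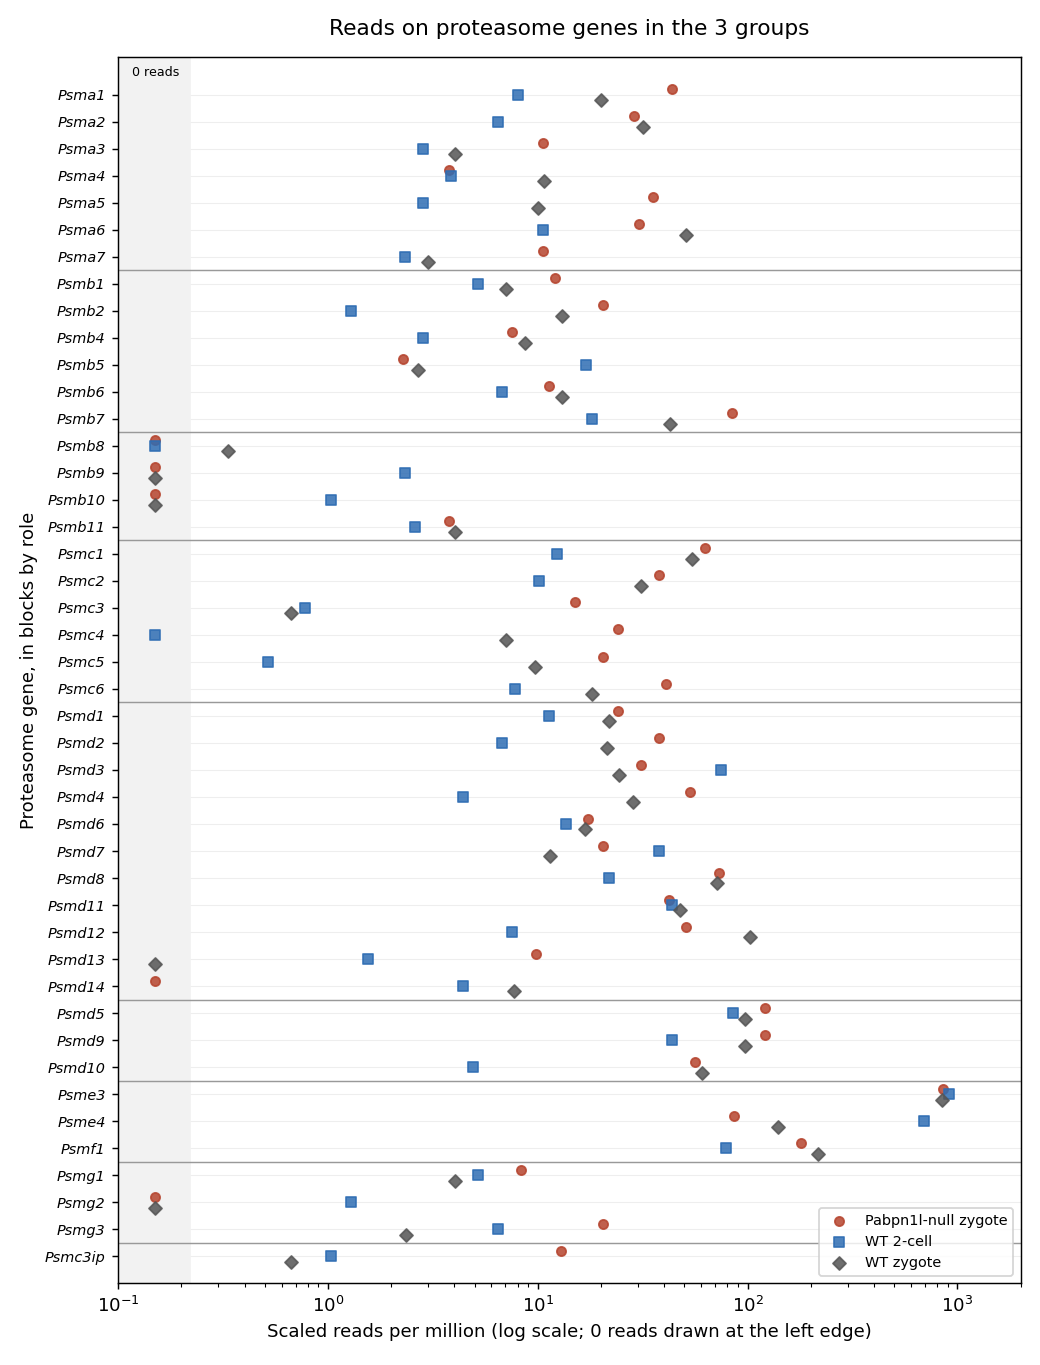
Scaled RPM (horizontal log axis, with 0 reads drawn at the left edge) of the 44 proteasome genes with reads, in blocks by role, with 1 point per group and no error bars. Psme3 lies between 849 and 913 in all groups, and Psme4 is at 697 in 2-cell embryos, against 140 in WT zygotes.

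The promoters of Psme4 and Psmd12, with the highest and lowest ratio of the genes past the test, are shown with that of Psmd9. All of them were chosen because they hold a match to the letters of the antioxidant response element. Through this motif NFE2L1 switches on proteasome genes when proteasome activity is short. The windows run from 250 bases before to 50 bases after the RefSeq start site on GRCm38.p6, 5′ to 3′, with the match to TGACNNNGC on either strand in capitals. They lie on the plus strand at chr11:30771525-30771824, chr11:107479278-107479577 and chr5:123227940-123228239 in the order of the lines.
Psme4: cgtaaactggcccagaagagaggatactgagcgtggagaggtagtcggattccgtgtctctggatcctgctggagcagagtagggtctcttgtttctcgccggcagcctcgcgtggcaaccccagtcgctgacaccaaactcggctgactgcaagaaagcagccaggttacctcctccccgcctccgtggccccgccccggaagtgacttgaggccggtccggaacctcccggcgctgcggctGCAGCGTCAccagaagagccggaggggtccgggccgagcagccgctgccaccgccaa
Psmd12: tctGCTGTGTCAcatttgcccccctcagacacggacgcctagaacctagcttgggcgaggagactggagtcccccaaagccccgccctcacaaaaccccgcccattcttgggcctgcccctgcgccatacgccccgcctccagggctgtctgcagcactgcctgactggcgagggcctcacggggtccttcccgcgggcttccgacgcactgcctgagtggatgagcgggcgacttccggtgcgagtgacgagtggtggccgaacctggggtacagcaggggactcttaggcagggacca
Psmd9: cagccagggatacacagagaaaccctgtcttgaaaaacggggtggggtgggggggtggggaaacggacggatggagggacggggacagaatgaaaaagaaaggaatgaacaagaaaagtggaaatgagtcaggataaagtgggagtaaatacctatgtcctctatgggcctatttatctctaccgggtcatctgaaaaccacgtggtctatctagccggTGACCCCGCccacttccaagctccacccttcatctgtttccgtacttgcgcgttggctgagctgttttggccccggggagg
Psme4 was higher in 2-cell embryos, and Psmd12 and Psmd9 were lower. Of the 41 proteasome genes with a promoter in the RefSeq table, 6 held the motif, or 14.6%, against 14.0% of 27025 genes. The other 3 were Psmb5, Psmb6 and Psmc6. A CCAAT box (CCAAT, either strand) stood in 36.6% of them and 41.1% of all, and a TATA box (TATAAA, either strand) in 9.76% and 15.7%. These matches are descriptions of letters, not binding sites.

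In Pabpn1l-null against WT zygotes, no proteasome gene passed the test in total reads in either direction, where 0.684% of 11262 genes were higher and the same share lower. Of the 39 genes tested by the exact test, 0 had an unadjusted p under 0.05 with 7 reads as 1 molecule. Among all 11262 genes, 1063 had such a p. With every read counted as 1 molecule, 9 were called higher, Psmc3ip among them, and 2 lower (23.1% and 5.13% of the 39), against 10% and 13.9% of all genes. By the 2-fold difference alone, 11 were higher and 3 lower (28.2% and 7.69% of the 39), against 12.4% and 26.4% of all genes. The median log2 ratio was 0.30 over the 39 and -0.15 over all genes. Most of the higher genes had few reads: 9 of the 11 had under 100 reads over the 3 columns. Among the 22 genes with at least 100 reads, 2 were higher and 1 lower. The matching share over all genes with at least 100 reads was not computed. The null column had the fewest reads, its low counts are clumped, and the part of this in the higher values was not tested.

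Of the 11 genes 2-fold or more higher in null zygotes, 4 were in the alpha ring and 4 were ATPases. They were 4 of 7 and 4 of 6 tested, against 12.4% of all genes, and none passed the test. In the alpha ring 1 gene, Psma4, was past 2-fold in the lower direction. Psma1 had 58 reads in null zygotes and 60 in WT zygotes, or 43.8 and 20.1 scaled RPM, a ratio of 2.18 (0.736 to 6.44). Psma5 had 47 and 30 reads, a ratio of 3.54 (0.904 to 15.8), while Psma3 and Psma7 each had 14 reads in null zygotes, against 12 and 9. Each of the 6 ATPase genes had a ratio above 1. Psmc6 had 54 and 54 reads, a ratio of 2.26 (0.722 to 7.07), Psmc4 32 and 21, Psmc5 27 and 29, and Psmc3 20 and 2. Psmc1, with the most reads of the ATPases, had 83 and 162, a ratio of 1.16 (0.523 to 2.43), and Psmc2 had 50 and 93. Psmg1 had 11 and 12 reads and Psmg3 had 27 and 7. Psmc3ip, which is no proteasome subunit, had 17 and 2. All of these intervals for tested genes include 1.

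In the beta ring Psmb7 had 112 reads in null zygotes and 128 in WT zygotes, a ratio of 1.98 (0.945 to 4.09), just under 2-fold, and Psmb2 had 27 and 39. Lower than 2-fold in null zygotes were Psmd12, with 67 and 306 reads and a ratio of 0.494 (0.218 to 1.01), Psmd14, with 0 and 23 reads, and Psma4, with 5 and 32. Psmd12 had 50.6 scaled RPM in null zygotes, 7.49 in 2-cell embryos and 102 in WT zygotes, and only the 2-cell difference passed the test. Its null and 2-cell ratios use the same WT zygote column, so they are not independent. Ratios on either side of 1 were found for Psme3 with 1.01 (0.835 to 1.22), Psmf1 with 0.823 (0.538 to 1.23), Psmd5 with 1.26 (0.721 to 2.14), Psmd9 with 1.24 (0.709 to 2.11) and Psmd8 with 1.03 (0.503 to 2.00). Psme4 had 114 and 419 reads, a ratio of 0.614 (0.332 to 1.08).

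**Figure D3:**
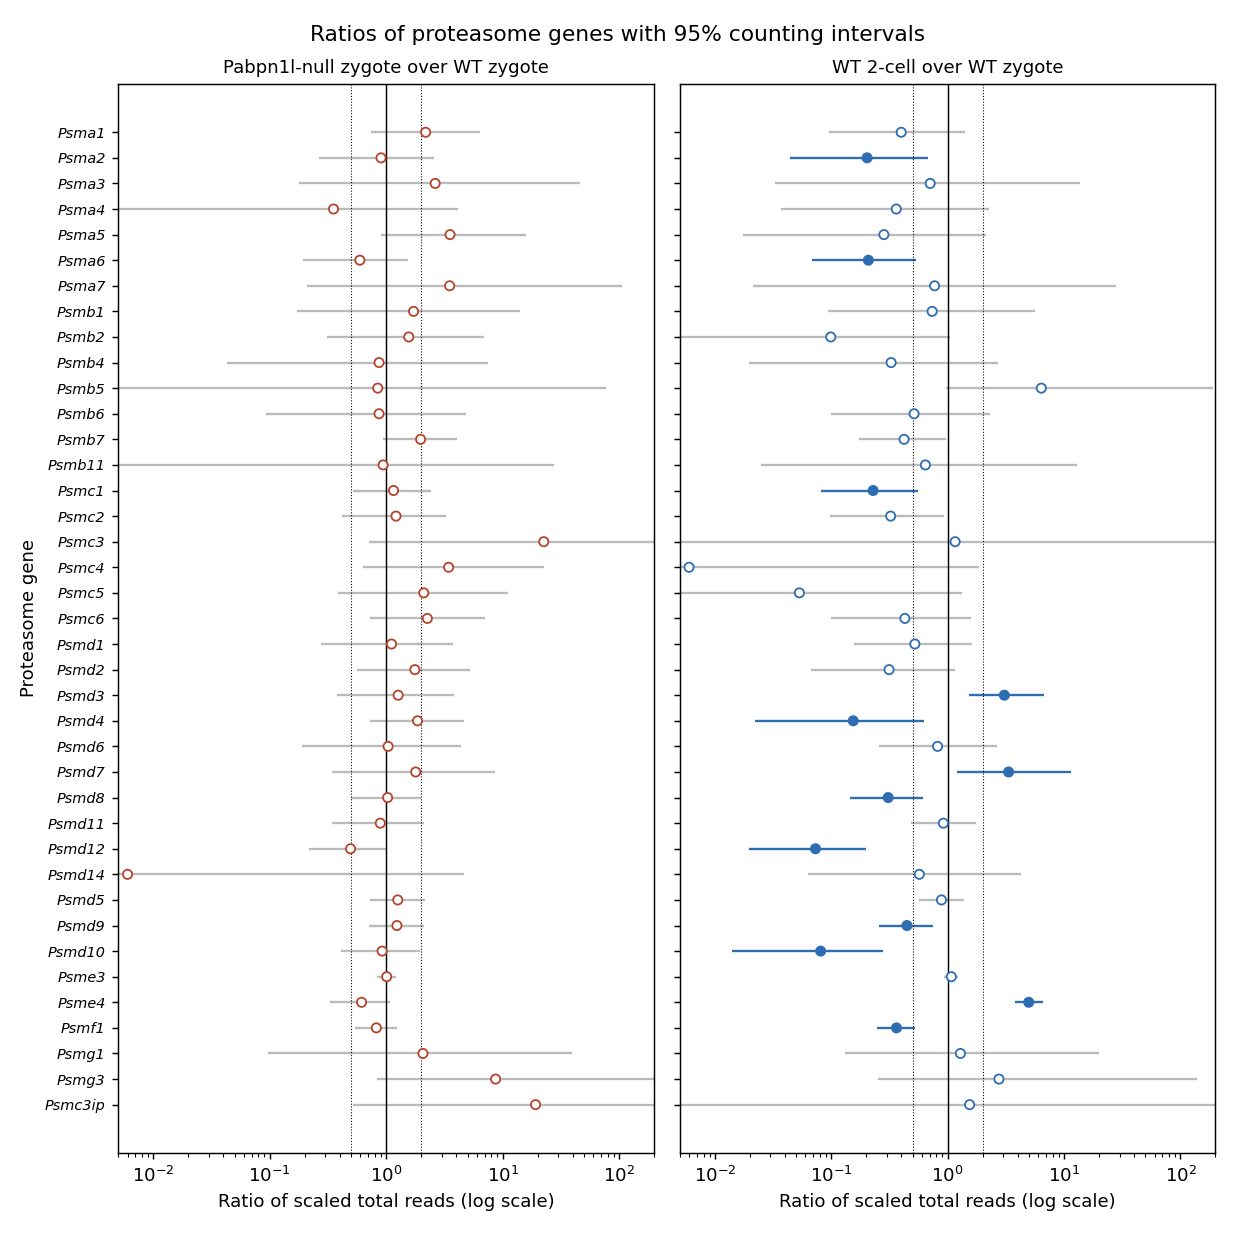
Ratio of scaled total reads (log axis) of the 39 tested proteasome genes in Pabpn1l-null zygotes over WT zygotes (left) and WT 2-cell embryos over WT zygotes (right). Points are ratios, lines are 95% counting intervals with 7 reads as 1 molecule, filled points passed the test, dotted lines mark 2-fold, and ratios of 0 and longer lines stop at the edges. No point is filled on the left, and 12 are on the right.

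T-to-C reads of the family summed to 120 in null zygotes, 340 in 2-cell embryos and 264 in WT zygotes, or 3.89%, 4.01% and 4.08% of the family's reads, and stood on 16, 17 and 26 genes. Of 15 genes with at least 10 T-to-C reads over the 3 columns, 0 passed the exact conditional binomial test in either comparison, with 1 in each at an unadjusted p under 0.05. Among all 4376 genes tested, 4.18% were higher and 1.55% lower in 2-cell embryos, and 0.0457% higher and 0% lower in null zygotes. Of these 4376, 480 had an unadjusted p under 0.05 in 2-cell embryos and 41 in null zygotes. The T-to-C share of reads passed for 0 of 22 genes in 2-cell embryos (of 6909 genes, 1.66% were higher and 0.0579% lower). It passed for 0 of 26 in null zygotes (of 6000, 0% and 0.0167%). By Fisher's exact test, 1 of the 22 and 0 of the 26 had an unadjusted p under 0.05. That count was not made over all genes.

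Psme4 had 1 T-to-C read in null zygotes, 106 in 2-cell embryos and 10 in WT zygotes. The ratio of 8.19 in 2-cell embryos against WT zygotes (1.58 to 136) missed the threshold (exact test, adjusted p = 0.0794) and passed it with RLE factors. Its T-to-C share was 0.877%, 3.93% and 2.39% in the same groups, so the T-to-C reads and the total reads were both higher in 2-cell embryos, while the intervals of the shares overlap. Psme3 had 16, 76 and 60 T-to-C reads, shares of 1.41%, 2.15% and 2.36%. Psmf1 had 8, 37 and 2 T-to-C reads, shares of 3.38% (0.127 to 16.0), 12.1% (4.21 to 25.5) and 0.308% (up to 4.50). For Psmf1 the total reads were lower in 2-cell embryos and the T-to-C share was higher, a difference in share that missed the threshold (Fisher's exact test, adjusted p = 0.248) and passed it with every read counted as 1 molecule.

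Some genes with few reads had T-to-C shares far above the column share. Psma6 had 0 T-to-C reads of 40 in null zygotes, 34 of 41 in 2-cell embryos and 73 of 152 in WT zygotes, shares of 0% (up to 47.6), 82.9% (34.9 to 99.6) and 48.0% (26.4 to 70.2). Psmb4 had 2 of 10, 9 of 11 and 17 of 26, and Psmd6 had 7 of 23, 27 of 53 and 8 of 50. In null zygotes Psmc2 had 21 of 50 and Psmd4 19 of 70, against 4 of 93 and 6 of 85 in WT zygotes. The series has no unlabelled control, so T-to-C reads from a sequence difference or an error cannot be told apart from labelled RNA. The intervals of these shares are wide and, within each gene, overlap between groups. T-to-C reads made up 7.45% of the reads of the 32 core and cap subunit genes in null zygotes, 8.17% in 2-cell embryos and 8.47% in WT zygotes. Without Psma6 these shares were 7.72%, 5.82% and 5.33%, so their order turned round with 1 gene.

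**Figure D4:**
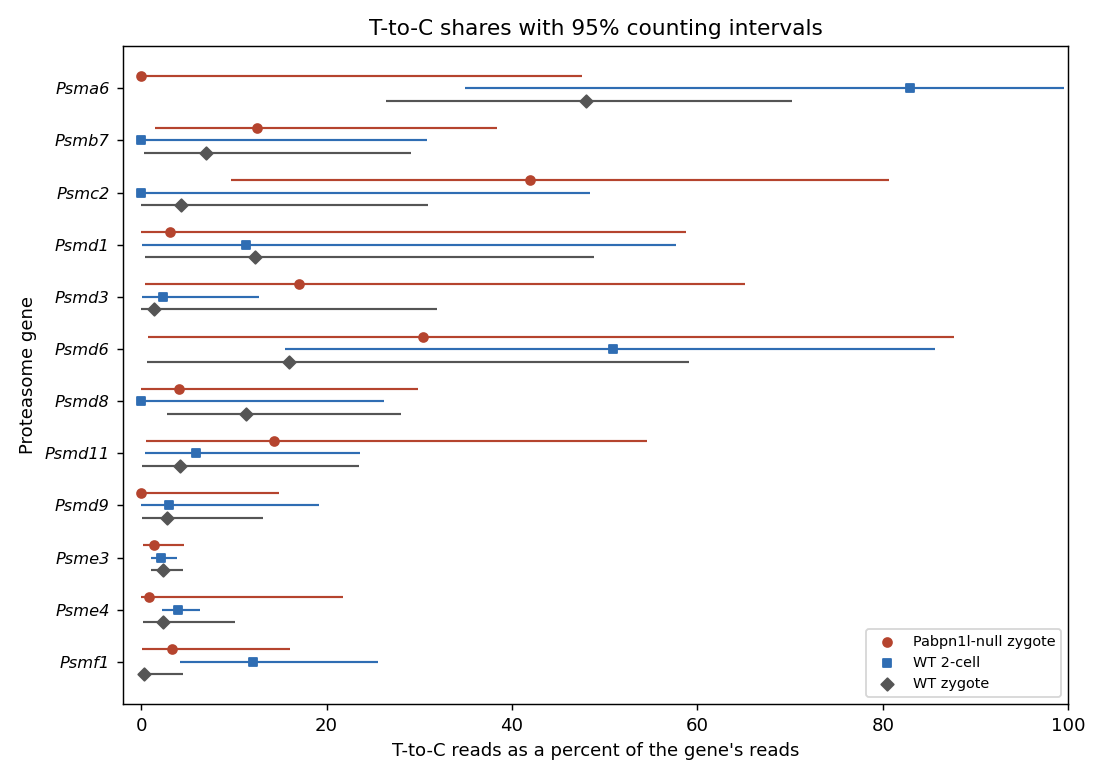
T-to-C reads as a percent of all reads of a gene (horizontal axis) for the 12 proteasome genes with at least 20 reads in each column and 10 T-to-C reads over them, in Pabpn1l-null zygotes, WT 2-cell embryos and WT zygotes. Lines are 95% counting intervals with 7 reads as 1 molecule. Psme3 stays between 1.41% and 2.36%, and Psma6 and Psmd6 reach 82.9% and 50.9% in 2-cell embryos.

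Other genes of the pathway, 25 of which are in the table, were 4 higher and 5 lower of 23 tested in 2-cell embryos, and 0 passed in null zygotes. The higher and lower ones were 17.4% and 21.7% of the 23, near the 16.4% and 15.9% of all genes. Their median log2 ratio in 2-cell embryos was -0.50. Pomp, the maturation factor of the core, had 10 reads in 2-cell embryos and 138 in WT zygotes, a ratio of 0.0560 (0.00343 to 0.279, exact test, adjusted p = 2.5e-05). Usp14, a deubiquitinase of the cap, had 120 and 274, a ratio of 0.338 (0.180 to 0.611), and Akirin2, which brings proteasomes into the nucleus, had 925 and 1610, a ratio of 0.444 (0.355 to 0.552). The shuttle gene Ubqln1 had 1053 and 1781 (0.457, 0.371 to 0.561) and Nploc4, a cofactor of the unfolding ATPase VCP, had 480 and 1046 (0.354, 0.262 to 0.475). Higher were Zfand2a, a stress-induced proteasome partner, with 2785 and 452 reads (4.76, 3.65 to 6.29), Ube3c, a ubiquitin ligase of the cap, with 528 and 115 (3.55, 2.06 to 6.47), Ubqln2 with 1790 and 645 (2.14, 1.68 to 2.75), and Ubqln4 with 187 and 47 (3.07, 1.29 to 8.55). Nfe2l1, the transcription factor of proteasome genes, had 1333 reads in null zygotes, 2163 in 2-cell embryos and 2261 in WT zygotes, a ratio of 0.739 (0.630 to 0.866) in 2-cell embryos that did not reach 2-fold. Ddi2, the protease that activates it, had 827, 1781 and 1561 reads, a ratio of 0.881 (0.733 to 1.06) in 2-cell embryos. Rad23b, which carries ubiquitinated proteins to the cap, had 585 reads in null zygotes, 3455 in 2-cell embryos and 2038 in WT zygotes. The null ratio of 0.648 (0.502 to 0.829, exact test, adjusted p = 0.0178) did not reach 2-fold. Its T-to-C reads were 22, 397 and 56 in these groups. The T-to-C ratio in 2-cell embryos was 5.47 (2.60 to 13.3, exact test, adjusted p = 7.9e-06). Its T-to-C share was 11.5%, against 2.75% in WT zygotes (Fisher's exact test, adjusted p = 0.000903). Rad23b was the 1 pathway gene called of 16 tested in T-to-C reads (6.25%, against 4.18% of all genes higher). In T-to-C share it was 1 of 19, against 1.66% of all genes higher.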

How the data were processed

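The table was deposited as counts by the authors, 1 pair per group: reads per gene row and reads with a T-to-C mismatch. The genome build was mm10, per the submitters' processing notes. Aligner, counting tool, annotation, strand and whether a pair merges both samples remain not given in the sources used here. For names, 47 rows holding a date were left out, and each name kept its row of most reads; 4 of the 49 genes had a second row, identical to the first. TMM factors (edgeR 4.0.16, R 4.3.3) over genes with at least 20 reads were 1.04, 0.963 and 0.996 in null zygotes, 2-cell embryos and WT zygotes, also for T-to-C reads.

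Total reads were tested over 11262 genes and T-to-C reads over 4376 with at least 10, by the exact conditional binomial test on reads divided by 7 (SciPy 1.17.1), and shares by Fisher's exact test with at least 20 reads in both columns. P-values were adjusted over all genes tested. Intervals are Clopper-Pearson at 95%, taken through the beta distribution where molecules are not whole, and cover counting error only. Log2 ratios add 0.5 molecule. The test was run on simulated data drawn in clumps of 7 reads, the model that the test itself assumes. Such a run cannot check the test where the clumps are absent. The clump size of 7 comes from earlier work on these counts, where it was seen in the null column and not in the WT columns. The genes, the lists and the tests were chosen with earlier results of these data known. Named are up to 4 genes per role with the most reads, each gene past the test, and others by their reads; of other pathway genes, those past the test and the 3 others with the most reads. The motifs and the promoters shown were chosen after the values were seen. Reads may be shared with processed pseudogenes of these subunits, and the authors' Positive and Negative calls were not used.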

Additional observations from a re-analysis of the deposited data

How the results depend on the processing

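No paired analysis was possible because the table has 1 column pair per group and no column for a single replicate. For the same reason no replicate could be left out. Counting every read as 1 molecule moved the counts of proteasome genes that passed. In null against WT zygotes they were then 9 higher and 2 lower for total reads, 6 and 1 for T-to-C reads and 3 and 1 for T-to-C share, against 0 in each with 7 reads as 1 molecule. In 2-cell embryos against WT zygotes they were 5 and 20, 3 and 4, and 5 and 1, against 3 and 9 in total reads and 0 in the others. Among all 11262 genes, 10% were then higher and 13.9% lower in total reads in null zygotes, and 30.7% and 28.4% in 2-cell embryos. For T-to-C reads and T-to-C share the counts over all genes under this setting were not computed, so these calls have no background. RLE factors added 1 call in T-to-C reads, Psme4. Fewer reads per molecule narrow each interval by construction. RLE factors, column totals, no filter and summed rows left the other counts within 1.5 times, and with the WT columns alone (added after the data were seen) 3 were higher and 9 lower in 2-cell embryos. RLE factors ended the call of Psmd9 (ratio 0.536), and column totals (3.23) and no filter (3.34) that of Psmd7. At this depth a gene listed at 0 was not detectable up to 21 reads.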
